A study of Mus musculus with 10 samples.

Results

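Fatty acid uptake and beta-oxidation was examined as a set of 36 genes named by their role in the pathway, from entry of fatty acids into the cell to the transfer of their electrons to the respiratory chain. Of these, 35 had an entry of their own among the 23303 entries of the table, and Acads occurred only in an entry joined with Gm13826. The samples were left ventricles of 10 male mice of strain 129X1/SvJ, 5 with surgery entered as CKD (chronic kidney disease) and 5 as Sham, each mouse profiled in 1 RNA sequencing library. The tissue of both groups was stored in RNALater, and the age of the mice and the operation that produced CKD are not given in the sources used here. The series concerns uremic cardiomyopathy, the heart disease of kidney failure, and its design implies 1 comparison, CKD against Sham. Values are FPKM (fragments scaled to transcript length and library size), which can be compared between genes because of the scaling to length. Mice are listed in the order 1 to 5 within each group, a number that only names them.

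The adult heart takes most of its energy from long-chain fatty acids. These are released from lipoproteins at the capillary wall, cross the membrane with the help of transporters, are bound to coenzyme A, and enter mitochondria as carnitine esters. There, 4 reactions repeated in a spiral (dehydrogenation, hydration, a second dehydrogenation and thiolysis) remove acetyl units. Electrons of the acyl-CoA dehydrogenases pass through the electron transfer flavoprotein to ubiquinone, auxiliary enzymes prepare unsaturated fatty acids for the spiral, and peroxisomes shorten very long chains in a parallel route with its own enzymes.

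CKD ventricles had lower transcript levels for many enzymes of mitochondrial beta-oxidation. Of the 35 genes, 18 were lower and 0 were higher in CKD at an adjusted p under 0.05 by limma, where 2.12% of all 11651 tested genes were called lower and 3.17% higher. At an unadjusted p under 0.05, 24 were lower and 0 higher, against 9.03% and 10.5% of all tested genes. The 18 falls were 12.2% to 32.1% of the Sham mean, with coefficients of variation between mice of 1.94% to 14.0% in CKD and 2.07% to 12.6% in Sham. For 22 of the 35 genes every CKD mouse lay below every Sham mouse, against 3.18% of all tested genes. The 35 genes were chosen with earlier results of these data known, so these shares describe the set and do not test it. The median log2 change of the 35 genes was -0.22, against -0.0035 over all tested genes, and 33 of the 35 changes were negative. All 35 passed the filter of a mean FPKM of at least 1, with Acad10 nearest to it at a mean of 2.39 FPKM. The 35 genes lay at high levels, with a median of 176 FPKM against 9.90 over all tested genes. Among the 1359 tested genes at or above the lower quartile of these 35 (56.8 FPKM), 70 were called lower and 49 higher. Of these 1359, 204 were lower and 156 higher at an unadjusted p under 0.05. For 106 of them every CKD mouse lay below every Sham mouse. The 1359 include those of the 35 genes that reach this level.

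**Figure D1:**
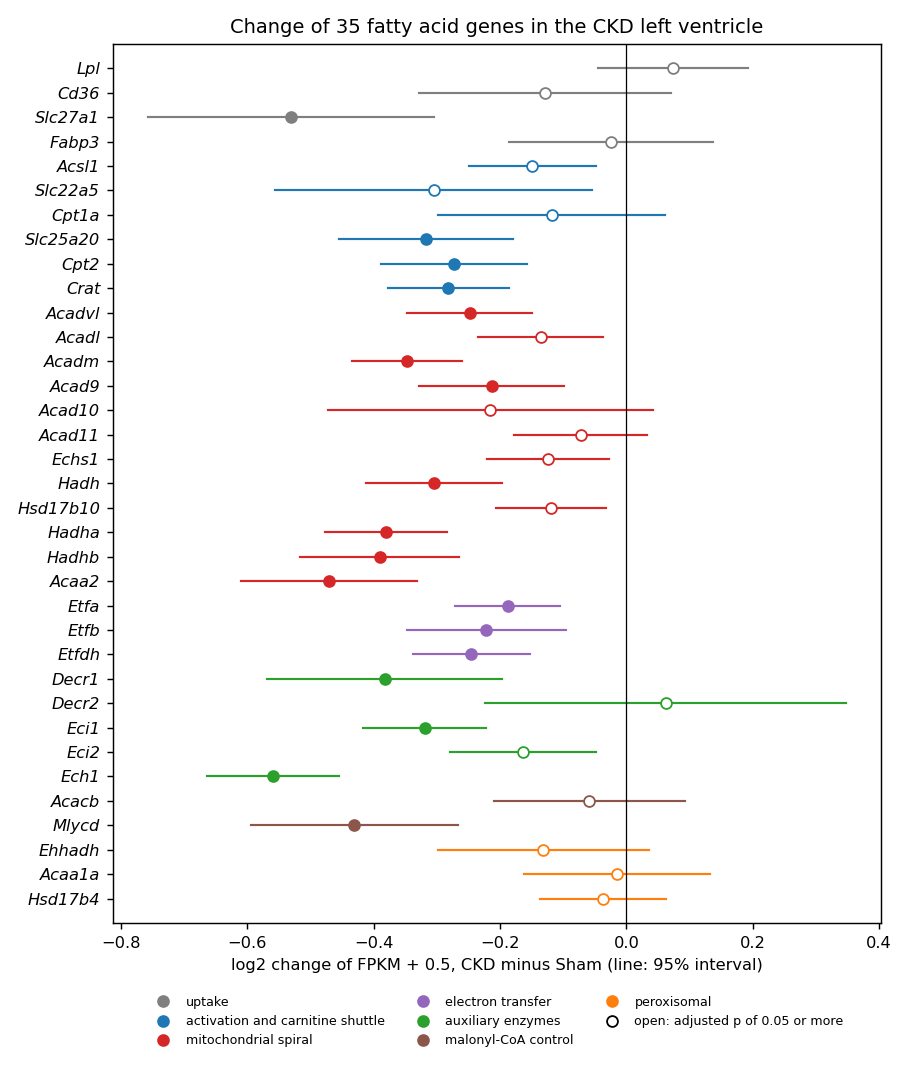
Log2 change of FPKM + 0.5 (horizontal axis, CKD minus Sham, n = 5 mice each) of the 35 genes, ordered and coloured by step, with the 95% interval of the limma fit as a line; filled points passed at an adjusted p under 0.05. The 18 filled points lie between -0.56 (Ech1) and -0.19 (Etfa), and the 3 peroxisomal genes lie between -0.13 and -0.01.

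The FPKM of a library summed to 570509 to 605007, and the spacing of the lowest values placed the depth of 8 libraries at 0.906 to 1.15 times that of Sham 2. CKD 1 and Sham 1 shared no such spacing with Sham 2 (17 and 15 genes at the commonest ratio, against 293 to 356 in the other libraries), and their 10 most abundant genes took 14.8% and 15.3% of the sum, against 17.6% to 18.25% elsewhere. Without these 2 libraries, the same 18 of the 35 genes were called lower. With a term for them in the model, 21 were, the 18 together with Acsl1, Hsd17b10 and Eci2. In whole tissue, fewer cells of a type and less RNA per cell cannot be told apart. Of 11 tested cardiomyocyte markers, none passed by limma (median log2 -0.03, 1 higher and 1 lower at an unadjusted p under 0.05), and their summed level was 57087 to 69863 FPKM in CKD and 60142 to 70842 in Sham, with the cardiac myosin gene Myh6 listed at 0 in all 10 libraries. Of 9 tested macrophage markers 5 rose (median log2 0.57, summed level 381 to 552 FPKM in CKD and 269.99 to 327 in Sham). Of 10 fibroblast markers 6 rose (median log2 0.46, 776 to 957 and 640.1 to 728 FPKM), where 3.17% of all tested genes were called higher. The 6 were Col1a1, Col1a2, Col3a1, Lum, Mfap5 and Pi16. The other 4, Pdgfra, Dcn, Tcf21 and Dpt, did not pass (log2 change 0.05, 0.07, -0.13 and 0.26). Summed levels are over all listed markers with an entry of their own, tested or not. Of 5 tested atrial muscle markers 2 rose, Dkk3 (log2 change 0.86) and Nppa, which encodes a natriuretic peptide (log2 change 1.33). Nppa made up nearly all of their summed level (2841 to 4116 FPKM in CKD and 840 to 1824 in Sham), and Myl4 and Myl7 did not pass (log2 change -0.15 and 0.03). No marker passed among 10 of endothelium (1 higher at an unadjusted p under 0.05), 10 of smooth muscle and pericytes (2 higher and 2 lower), 3 of white adipocytes (0), 2 of brown adipocytes (0) and 2 of erythroid cells (0), and no lymphocyte marker reached the filter. The adipocyte markers tested were Cfd, Adig and Fabp4 (white) and Cidea and Cox7a1 (brown). Adipoq, Plin1 and Ucp1 did not reach the filter, so these markers say little about adipocytes. The part of all these cell types in the falls described here was not tested.

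Among the uptake genes, only the transporter Slc27a1 passed the test. Lpl encodes the lipase that frees fatty acids from lipoproteins. It stood at 1687, 1761, 1951, 1848 and 1863 FPKM in the CKD mice and 1564, 1762, 1699, 1855 and 1777 in the Sham mice, and the groups overlapped (log2 change 0.07, SE 0.05, adjusted p = 0.503). Cd36, the main membrane carrier of long-chain fatty acids in heart, stood at 816, 626, 680.0, 649 and 713 FPKM in the CKD mice and 937, 681, 699.6, 743 and 756 in the Sham mice. Its groups overlapped too (log2 change -0.13, SE 0.09, adjusted p = 0.486), and the interval of its change ran from -0.33 to 0.07. Fabp3, the cytosolic fatty acid binding protein of heart muscle, had the highest level of all 35 genes, at a mean FPKM of 3265 ± 292 under CKD against 3318 ± 291 under Sham (SDs of 5 mice). The interval of its log2 change ran from -0.19 to 0.14.

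Slc27a1 encodes fatty acid transport protein 1, a membrane protein with acyl-CoA synthetase activity. It stood at 78.5, 57.4, 65.9, 73.2 and 57.9 FPKM in the CKD mice and 103, 104, 89.6, 79.5 and 104 in the Sham mice. The highest CKD mouse, CKD 1, came within 1.02 FPKM of the lowest Sham mouse, Sham 4, without reaching it. The mean fell by 30.8% (log2 change -0.53, SE 0.10, adjusted p = 0.0128), after Ech1 the second largest fall of the 35.

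In the activation and carnitine step, the genes for transfer across the inner membrane, Slc25a20 and Cpt2, fell, and so did Crat. Slc25a20 encodes the translocase that exchanges acylcarnitine for carnitine, and stood at 108, 100.4, 114, 106 and 98.8 FPKM in the CKD mice and 139.8, 126, 141, 116 and 134 in the Sham mice. Every CKD mouse was below every Sham mouse, and the mean fell by 19.9% (log2 change -0.32, SE 0.06, adjusted p = 0.0142). Cpt2, the carnitine palmitoyltransferase that returns the acyl group to coenzyme A inside the mitochondrion, stood at 128, 123, 135, 131 and 117 FPKM in the CKD mice and 164, 146, 156, 144 and 158 in the Sham mice. It fell by 17.3%, again with no overlap (log2 change -0.27, SE 0.05, adjusted p = 0.0128). Crat encodes carnitine acetyltransferase, which buffers acetyl-CoA with carnitine. It had the tightest groups of the 3, at 139, 139, 142, 145 and 133 FPKM in the CKD mice and 166, 171, 175, 160.5 and 177 in the Sham mice, a fall of 17.8% (log2 change -0.28, SE 0.04, adjusted p = 0.00404).

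The genes before that transfer did not pass, and whether their change differed from that of the genes above was not tested. Acsl1, the main long-chain acyl-CoA synthetase of heart, stood at 300.5, 283, 299, 289 and 278 FPKM in the CKD mice and 349, 311, 314, 309 and 325 in the Sham mice. The groups were apart by a small margin, and a mean 9.86% lower did not reach the threshold over all genes (log2 change -0.15, SE 0.05, adjusted p = 0.0864). Slc22a5, the carnitine importer of the plasma membrane, was at a mean FPKM of 10.5 ± 1.54 under CKD against 13.1 ± 1.93 under Sham (log2 change -0.30, SE 0.12, adjusted p = 0.162), and CKD 1, CKD 3 and CKD 4 exceeded the lowest Sham mouse. Cpt1a encodes the liver form of the outer-membrane carnitine palmitoyltransferase, and stood at a mean FPKM of 16.5 ± 2.20 under CKD against 17.9 ± 0.906 under Sham (interval of the log2 change -0.30 to 0.06). The muscle form Cpt1b, which carries this step in heart muscle, was present only in an entry joined with its neighbours BC090627 and Chkb. That joined entry was at a mean FPKM of 354 ± 23.9 under CKD against 378 ± 29.1 under Sham (log2 change -0.09, SE 0.06, adjusted p = 0.459), and the share of Cpt1b in it is not known.

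**Figure D2:**
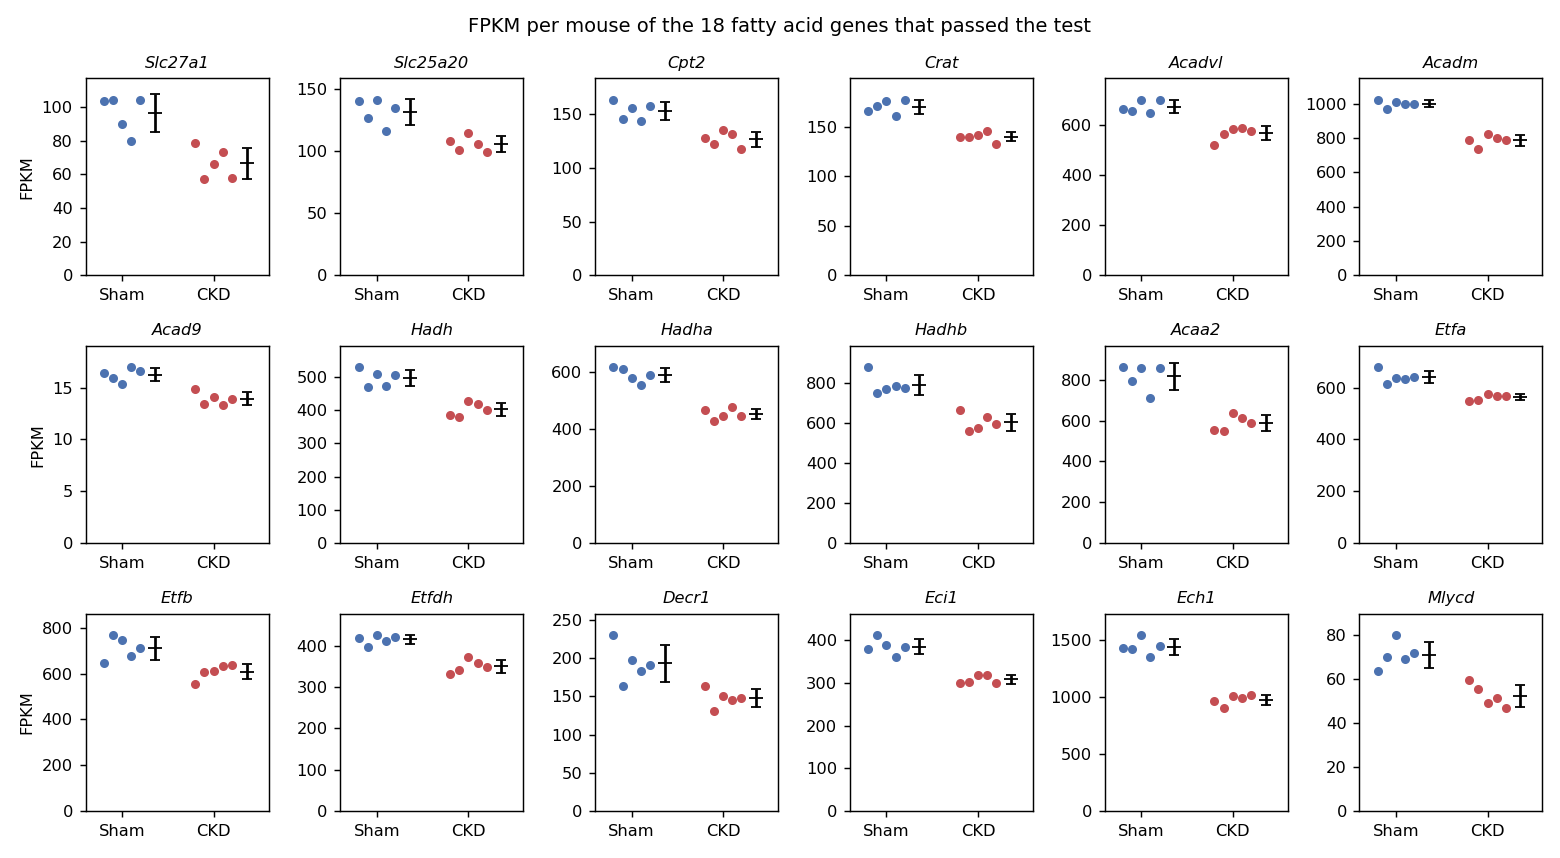
FPKM (vertical axis, from 0) of the 18 genes that passed the test, 1 point per mouse in the order 1 to 5, with the group mean and SD (n = 5) to the right of the points. In each panel all CKD points lie below all Sham points, with the widest gap in FPKM for Ech1 (highest CKD mouse 1013, lowest Sham mouse 1347).

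Of the 12 tested genes of the mitochondrial spiral, 7 fell and 5 did not pass. The acyl-CoA dehydrogenases, which open each turn, are named for the chain length they prefer. Acadvl, for very long chains, stood at 523, 565, 587, 591 and 579 FPKM in the CKD mice and 665, 659, 704, 649 and 700.4 in the Sham mice, a fall of 15.8% (log2 change -0.25, SE 0.05, adjusted p = 0.00938). Acadm, for medium chains, stood at 789.9, 734, 821, 802 and 789 FPKM in the CKD mice and 1025, 969, 1012, 1001 and 1000.3 in the Sham mice. Its spread within a group was 2.07% of the mean in Sham and 4.14% in CKD, and the groups were 148 FPKM apart. The fall of 21.4% had the smallest p of the spiral (log2 change -0.35, SE 0.04, adjusted p = 0.000876). Acadl, for long chains, lay between these in substrate but its groups touched, at 783, 764, 874, 809 and 785 FPKM in the CKD mice and 892, 860.5, 873, 854 and 930.4 in the Sham mice. CKD 3 exceeded the 3 lowest Sham mice, and the change did not pass (log2 change -0.14, SE 0.05, adjusted p = 0.113). The entry that joins Acads, for short chains, with Gm13826 stood at 151, 154, 159, 161 and 154 FPKM in the CKD mice and 163, 177, 176, 164 and 181 in the Sham mice. Every CKD mouse was lower there, by 9.54% in the mean, and the change did not pass (log2 change -0.14, SE 0.04, adjusted p = 0.0895). Whether the change differed between these chain lengths was not tested.

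Acad9, a dehydrogenase that also serves in the assembly of respiratory complex I, fell from a lower level, at 14.9, 13.4, 14.1, 13.4 and 13.9 FPKM in the CKD mice and 16.4, 15.9, 15.3, 17.0 and 16.6 in the Sham mice (log2 change -0.21, SE 0.05, adjusted p = 0.0383). This call was lost without any 1 library other than CKD 1 and with libraries scaled to the same total (adjusted p up to 0.101). Acad10 and Acad11, dehydrogenases of a separate branch of the family, were at a mean FPKM of 2.18 ± 0.426 under CKD against 2.59 ± 0.292 under Sham and at a mean FPKM of 65.8 ± 2.55 under CKD against 69.3 ± 3.17 under Sham. Neither passed (adjusted p = 0.347 and 0.454).

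After the dehydrogenases come hydration and the next dehydrogenation. Echs1, the short-chain enoyl-CoA hydratase, stood at 333, 339.7, 363, 371 and 370.4 FPKM in the CKD mice and 378, 379, 389, 405 and 384 in the Sham mice. The groups did not overlap (highest CKD mouse CKD 4, lowest Sham mouse Sham 1), but a mean 8.17% lower did not pass (log2 change -0.12, SE 0.04, adjusted p = 0.139). Hadh, the hydroxyacyl-CoA dehydrogenase for medium and short chains, stood at 383, 380.1, 425, 418 and 399 FPKM in the CKD mice and 528, 469, 507, 470.3 and 504 in the Sham mice. Its fall of 19.0% passed (log2 change -0.30, SE 0.05, adjusted p = 0.00523). Hsd17b10, a dehydrogenase of branched and short acyl chains that is also a subunit of mitochondrial RNase P, was at 162, 167, 167, 179.6 and 169 FPKM in the CKD mice and 183, 182, 184, 188 and 180.0 in the Sham mice. Its groups lay apart, and a mean 7.88% lower did not pass (log2 change -0.12, SE 0.04, adjusted p = 0.115).

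The trifunctional protein carries out the last 3 reactions of the spiral on long chains. Its alpha subunit Hadha holds the hydratase and dehydrogenase, and its beta subunit Hadhb the thiolase. In GRCm38, Hadha lies at chr5:30119423-30154980 on the minus strand and Hadhb at chr5:30155253-30184593 on the plus strand. Their annotated starts are 273 bases apart and point away from each other, so the RefSeq promoter windows of the 2 genes (250 bases before to 50 after the start) share 228 bases. The window of Hadhb, chr5:30155003-30155302, is printed because it holds 250 of the bases between the 2 starts. Capitals mark the bases from the annotated Hadhb start on.
Hadhb: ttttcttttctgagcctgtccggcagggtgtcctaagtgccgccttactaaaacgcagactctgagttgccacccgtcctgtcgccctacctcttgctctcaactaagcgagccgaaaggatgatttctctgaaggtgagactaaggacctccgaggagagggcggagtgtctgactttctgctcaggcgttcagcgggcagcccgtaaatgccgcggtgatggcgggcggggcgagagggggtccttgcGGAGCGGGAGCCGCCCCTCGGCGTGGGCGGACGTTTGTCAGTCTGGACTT

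Both subunits fell, and by like amounts. Hadha stood at 464, 428, 446, 476 and 445 FPKM in the CKD mice and 615, 607, 579, 553 and 588 in the Sham mice, a fall of 23.2% (log2 change -0.38, SE 0.04, adjusted p = 0.000962). Hadhb stood at 663, 559, 577, 629.5 and 594 FPKM in the CKD mice and 879, 753, 770.2, 785 and 776 in the Sham mice, a fall of 23.7% (log2 change -0.39, SE 0.06, adjusted p = 0.00335). Sham 1 was highest of all 10 mice for both genes, and CKD 2 lowest. The ratio of Hadha to Hadhb was 0.749 ± 0.0288 in CKD and 0.744 ± 0.0441 in Sham (SDs of 5 mice). The difference was 0.01 on the log2 scale (SE 0.05, two-sided exact permutation p = 0.778, adjusted over the 3 ratios examined 0.778), and its sign turned without CKD 3, Sham 1 or Sham 4.

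Acaa2, the mitochondrial thiolase for medium chains, closes the spiral and had its largest fall. It stood at 555, 547, 636, 614 and 590.3 FPKM in the CKD mice and 861, 796, 859.7, 712 and 856 in the Sham mice. The lowest Sham mouse, Sham 4, was 75.6 FPKM above the highest CKD mouse, CKD 3, and the mean fell by 27.9% (log2 change -0.47, SE 0.06, adjusted p = 0.00205).

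All 3 genes of electron transfer fell. Etfa and Etfb encode the subunits of the electron transfer flavoprotein, which takes electrons from the acyl-CoA dehydrogenases. Etfa stood at 550.0, 554, 577, 567 and 567 FPKM in the CKD mice and 679, 616, 638, 634 and 641 in the Sham mice (log2 change -0.19, SE 0.04, adjusted p = 0.0157). Etfb stood at 554, 606, 610.2, 635 and 638 FPKM in the CKD mice and 645, 768, 747, 677 and 713 in the Sham mice (log2 change -0.22, SE 0.06, adjusted p = 0.0464). CKD 1 was the lowest mouse for both. Etfdh encodes the dehydrogenase that hands the electrons to ubiquinone, and stood at 331, 343, 373, 357 and 349 FPKM in the CKD mice and 420.3, 398, 426, 412 and 422 in the Sham mice, a fall of 15.6% (log2 change -0.25, SE 0.04, adjusted p = 0.00688). The call of Etfb was the weakest of the 18: it was lost without any 1 library other than Sham 1, without a filter on the mean, with scaling by the median ratio and without a variance trend (adjusted p up to 0.116). The ratio of Etfa to Etfb was 0.927 ± 0.0429 in CKD and 0.909 ± 0.0948 in Sham (log2 difference 0.03, SE 0.07, two-sided exact permutation p = 0.667, adjusted 0.778), and without Sham 2 the difference was -0.0098.

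The auxiliary enzymes held the largest fall of the pathway. Ech1, at chr7:28825338-28832239 in GRCm38, encodes a dienoyl-CoA isomerase found in mitochondria and peroxisomes. It stood at 967, 899, 1005, 988 and 1013 FPKM in the CKD mice and 1426, 1418, 1542, 1347 and 1447 in the Sham mice. The groups were 334 FPKM apart, against SDs of 45.8 in CKD and 70.3 in Sham, and the mean fell by 32.1% (log2 change -0.56, SE 0.05, adjusted p = 0.000267). Eci1, the mitochondrial enoyl-CoA isomerase for monounsaturated chains, stood at 301, 302, 320.0, 320.0 and 300.4 FPKM in the CKD mice and 381, 412, 389, 361 and 384 in the Sham mice, a fall of 19.9% (log2 change -0.32, SE 0.04, adjusted p = 0.00228). Decr1, the mitochondrial dienoyl-CoA reductase, stood at 163, 131, 151, 145 and 147 FPKM in the CKD mice and 230.4, 164, 198, 183 and 191 in the Sham mice. The lowest Sham mouse, Sham 2, was only 0.226 FPKM above the highest CKD mouse, CKD 1, and Sham 1 was the highest of all. The fall of 23.6% passed (log2 change -0.38, SE 0.09, adjusted p = 0.0243), and the call was lost without CKD 2, CKD 5 or Sham 3 (adjusted p up to 0.0652).

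Eci2 and Decr2 did not pass. Eci2, an isomerase of mitochondria and peroxisomes, stood at 101, 112, 117, 114 and 107 FPKM in the CKD mice and 119, 119.9, 127, 119 and 133 in the Sham mice. Its groups lay apart by 1.47 FPKM (log2 change -0.16, SE 0.05, adjusted p = 0.101). Decr2, the peroxisomal dienoyl-CoA reductase, was at a mean FPKM of 5.89 ± 0.960 under CKD against 5.62 ± 0.967 under Sham, with the groups mixed (interval of the log2 change -0.22 to 0.35).

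Malonyl-CoA blocks entry of acyl groups into mitochondria by inhibiting the outer carnitine palmitoyltransferase. Mlycd, the decarboxylase that breaks malonyl-CoA down, fell, and Acacb, the acetyl-CoA carboxylase that makes it at the mitochondrial surface, did not pass. Mlycd stood at 59.4, 55.3, 49.2, 51.3 and 46.9 FPKM in the CKD mice and 63.5, 69.9, 79.9, 68.9 and 71.5 in the Sham mice, a fall of 25.9% (log2 change -0.43, SE 0.08, adjusted p = 0.00735). Acacb stood at 48.6, 50.2, 51.8, 53.7 and 44.9 FPKM in the CKD mice and 48.0, 54.1, 49.0, 49.6 and 59.3 in the Sham mice, with the groups mixed (log2 change -0.06, SE 0.07, adjusted p = 0.711). The ratio of Acacb to Mlycd was 0.819, 0.908, 1.05, 1.05 and 0.958 in the CKD mice and 0.756, 0.774, 0.613, 0.721 and 0.829 in the Sham mice. It was higher in CKD by 0.37 on the log2 scale (SE 0.10, two-sided exact permutation p = 0.0159, adjusted over 3 ratios 0.0476), and CKD 1 lay below the highest Sham mouse, Sham 5. The smallest p that 5 against 5 mice allow is 0.00794, and 0.0159 with 1 left out. The adjusted p was 0.0952 whichever library other than CKD 1 and Sham 5 was left out.

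**Figure D3:**
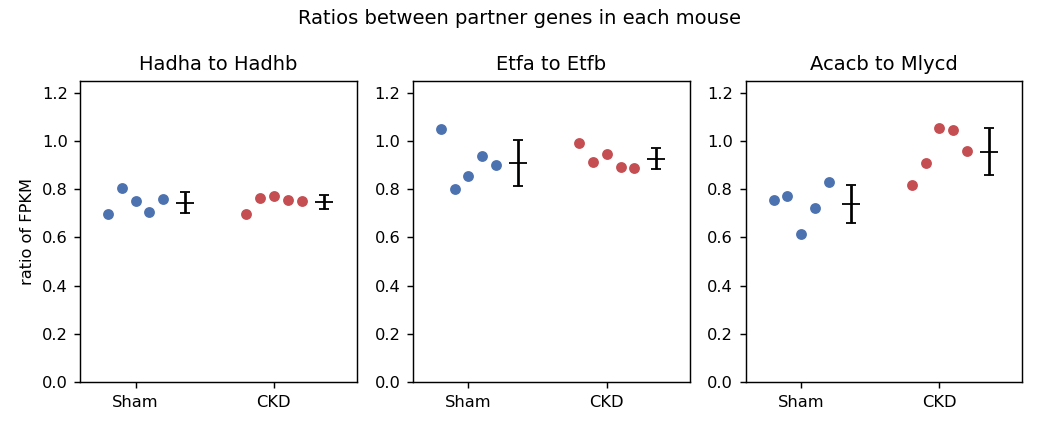
Ratio of FPKM between partner genes (vertical axis, from 0) in each of 5 Sham and 5 CKD mice, with the group mean and SD to the right of the points. The Hadha to Hadhb and Etfa to Etfb ratios overlap between the groups, and the Acacb to Mlycd ratio averages 0.957 in CKD and 0.739 in Sham.

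None of the 3 genes of peroxisomal beta-oxidation passed by limma, and 0 had an unadjusted p under 0.05. Ehhadh, the bifunctional enzyme for straight chains, was at a mean FPKM of 5.92 ± 0.295 under CKD against 6.55 ± 0.651 under Sham, with an interval of the log2 change from -0.30 to 0.04. Hsd17b4, the bifunctional enzyme for very long and branched chains, was at a mean FPKM of 51.3 ± 2.52 under CKD against 52.6 ± 0.529 under Sham (-0.14 to 0.06). Acaa1a, the peroxisomal thiolase, was at a mean FPKM of 41.1 ± 2.02 under CKD against 41.7 ± 3.91 under Sham (-0.16 to 0.13), and its sign turned when 1 of CKD 5, Sham 2 or Sham 5 was left out and with sample weights. The SE of these 3 changes was 0.05 to 0.08 (median 0.068), against 0.04 to 0.12 (median 0.047) for the spiral genes. The largest spiral SE was that of Acad10, the gene of lowest level. At the median, the peroxisomal changes were thus less precise. Whether the change of the peroxisomal genes differed from that of the mitochondrial genes was not tested.

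Sums over the steps show the levels involved. The 12 spiral genes together gave 4812 ± 174 FPKM in CKD and 5911 ± 171 in Sham, the 5 auxiliary genes 1547 ± 57.9 and 2144 ± 88.7, and the 3 electron transfer genes 1522 ± 54.2 and 1767 ± 34.0 (each ± the SD of 5 mice). The 6 activation and carnitine genes gave 689 ± 27.4 and 808 ± 36.4. The 4 uptake genes gave 5850 ± 308 and 5909.6 ± 234, and the 3 peroxisomal genes 98.4 ± 4.04 and 101 ± 3.73, so that these 2 sums overlapped between the groups. All 35 genes took 2.45%, 2.41%, 2.55%, 2.53% and 2.44% of the summed FPKM in the CKD mice and 2.89%, 2.80%, 2.87%, 2.78% and 2.86% in the Sham mice.

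The depth of the difference was read in each mouse. Over all 35 genes, the median deviation from the Sham mean was -0.23, -0.27, -0.16, -0.19 and -0.21 (log2) in CKD 1 to CKD 5, deepest in CKD 2 and shallowest in CKD 3, and -0.06 to 0.03 in the Sham mice. The median deviation of the 18 called genes from their Sham mean was -0.31, -0.36, -0.26, -0.29 and -0.37 (log2) in CKD 1 to CKD 5, and it ran from -0.07 to 0.05 in the Sham mice. These 18 were called lower in the same mice, which favours negative values in CKD and a small spread. CKD 2 held the lowest value of all 10 mice for 8 of the 18 genes, CKD 5 for 5, CKD 1 for 4, CKD 4 for 1 and CKD 3 for 0. The highest value belonged to Sham 1 for 8 genes, Sham 3 for 5, Sham 2 for 3, and Sham 4 and Sham 5 for 1 each.

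**Figure D4:**
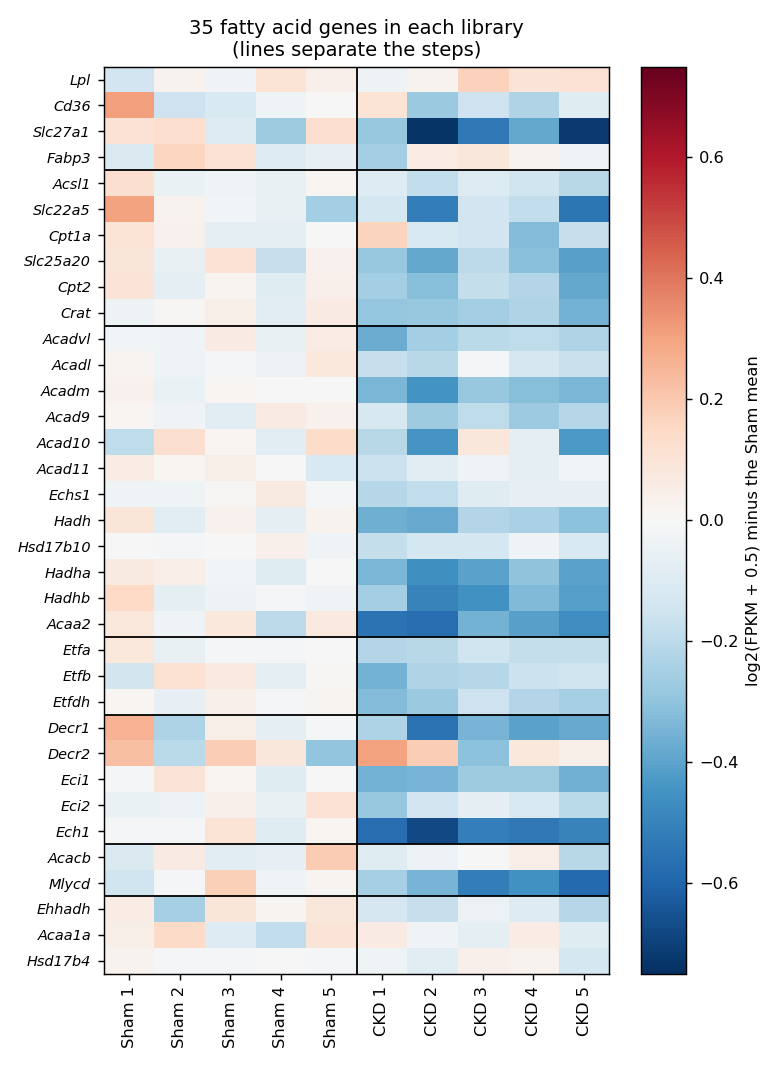
Deviation of log2(FPKM + 0.5) from the Sham mean (colour, blue lower) for the 35 genes (rows, grouped by step) in each library (columns, 5 Sham then 5 CKD). The 18 called genes are blue in all 5 CKD columns, with medians from -0.37 (CKD 5) to -0.26 (CKD 3), and were called lower in these same libraries.

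Genes that regulate the pathway did not pass. Of 19 tested, 0 rose and 0 fell by limma (median log2 -0.09), with 4 lower and 0 higher at an unadjusted p under 0.05, where 9.03% of all tested genes were lower and 10.5% higher. Ppara, the nuclear receptor that fatty acids activate, was at a mean FPKM of 16.5 ± 0.936 under CKD against 17.6 ± 0.779 under Sham (log2 change -0.09, SE 0.06, adjusted p = 0.432), and its coactivator Ppargc1a at a mean FPKM of 22.4 ± 5.37 under CKD against 20.9 ± 2.51 under Sham (log2 change 0.07, SE 0.14, adjusted p = 0.843). Esrra, the estrogen-related receptor alpha, was lower in every CKD mouse, at a mean FPKM of 59.4 ± 4.24 under CKD against 69.2 ± 4.00 under Sham, and did not reach the threshold (log2 change -0.22, SE 0.06, adjusted p = 0.0585). Of 14 other tested genes of peroxisomal oxidation, 1 fell by limma, where 2.12% of all tested genes were called lower. It was Pex11a, a peroxisome division protein (log2 change -0.40, SE 0.09, adjusted p = 0.0297). At an unadjusted p under 0.05, 2 of the 14 were lower and 0 higher, against 9.03% and 10.5% of all tested genes.

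Of 17 tricarboxylic acid cycle genes 0 rose and 0 fell by limma (median log2 -0.10). At an unadjusted p under 0.05, 8 of the 17 were lower (9.03% of all tested genes were). In 7 the groups did not overlap, with CKD lower (3.18% of all tested genes). Sdha, a subunit of succinate dehydrogenase, was nearest to the threshold (log2 change -0.21, SE 0.06, adjusted p = 0.0524). Against 2.12% of all tested genes called lower, 5 of 14 genes that oxidize branched-chain acyl groups fell. Of these, Bckdha (log2 change -0.30, SE 0.06, adjusted p = 0.00977), Mccc2 (log2 change -0.28, SE 0.05, adjusted p = 0.0123), Ivd, an acyl-CoA dehydrogenase that uses the same flavoprotein (log2 change -0.21, SE 0.04, adjusted p = 0.0155) and Auh (log2 change -0.19, SE 0.04, adjusted p = 0.0296) had the smallest p. The median of these 14 was -0.19, and 11 were lower at an unadjusted p under 0.05 (9.03% of all tested genes). In 8 of the 14 the groups did not overlap, with CKD lower (3.18% of all tested genes). Differences between the lists were not tested, and the lists were chosen with earlier results of these data known.

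**Figure D5:**
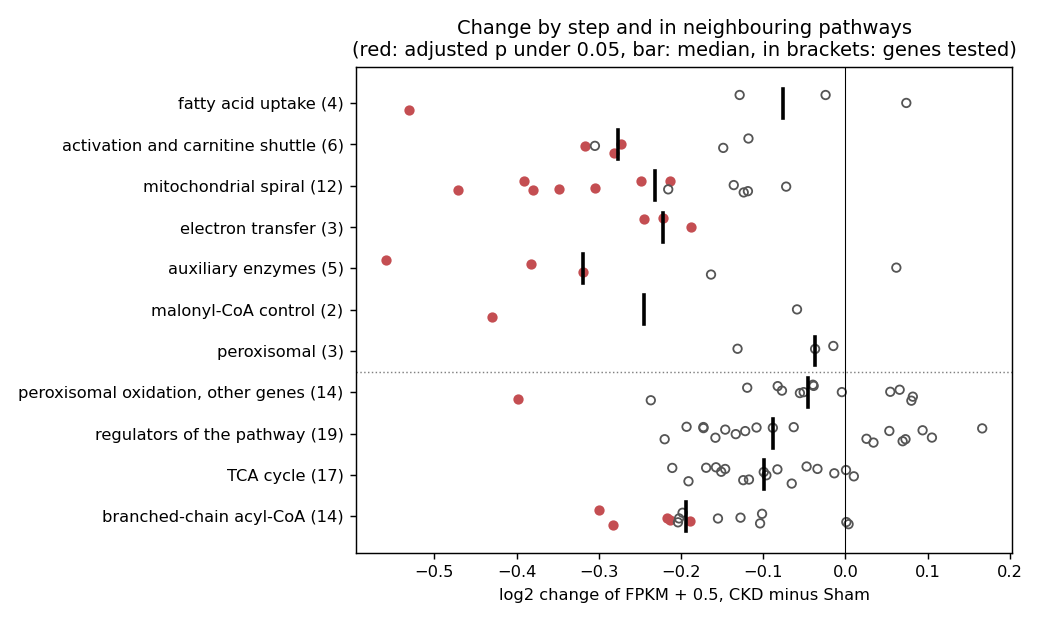
Log2 change (horizontal axis, CKD minus Sham) of each tested gene by step of the pathway (above the dotted line) and in 4 related lists (below); red points passed at an adjusted p under 0.05 and the bar is the median. The median is -0.32 for the auxiliary enzymes, -0.23 for the spiral and -0.19 for the branched-chain list. It is -0.10 for the tricarboxylic acid cycle and -0.04 for the peroxisomal genes.

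Promoters were read for sites of the nuclear receptors known to act on this pathway. RefSeq windows (GRCm38.p6, 250 bases before to 50 after the annotated start) were held for 30 of the 36 genes. The receptor hexamer AGGTCA, on either strand, occurred in 6 of the 30 (20.0%: Cd36, Cpt1a, Acadm, Acadvl, Echs1 and Acacb), against 18.1% of all 27025 genes with a window. Among the 14 called genes with a window it occurred in 2, Acadm and Acadvl. The longer estrogen-related receptor site TNAAGGTCA, which contains the hexamer, occurred in 0 of 30 and in 1.43% of all genes, and the direct repeat of the hexamer with 1 base between the copies in 0 of 30 and in 0.0481%. The stretches around the matches in the 2 called genes, chr3:153944847-153944893 and chr11:70015470-70015555 (both minus strand), are printed 5′ to 3′ along the gene. Capitals mark the match, which begins 249 bases before the start of Acadm, where it reads as the reverse complement, and 87 bases before that of Acadvl.
Acadm: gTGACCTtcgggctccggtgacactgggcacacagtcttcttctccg
Acadvl: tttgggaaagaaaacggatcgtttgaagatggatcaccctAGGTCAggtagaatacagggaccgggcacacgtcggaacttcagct

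Some entries could hold reads of overlapping genes, since the use of strand in counting is not known, and how far this moves a value was not tested. In GENCODE M21, 42.9% of the exonic bases of Acadvl also lie in exons of Dvl2 on the other strand, which has a mean of 3.07 FPKM against 622 for Acadvl. Of those of Fabp3, 9.84% lie in exons of Zcchc17 (18.7 FPKM against 3292), and of those of Acaa1a 6.57% in exons of Myd88 (9.54 FPKM against 41.4). Of the exonic bases of Etfb, 53.0% are shared with the gene model Gm45233 on the same strand, and of those of Acad9, 6.82% with Gm43079. Neither model has an entry, so Etfb and Acad9 have no level to set beside them.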

How the data were processed

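The deposited values are FPKM computed by the authors, 1 value per entry and library. STAR 2.4.0f1, Cufflinks 2.1.1, Cuffdiff 2.1.1 and the builds mm10 and hg19 appear in the submitters' processing notes, with no role given for hg19. FPKM hold no read numbers, so depth is known only as the relative values given and precision comes from the 5 mice per group. The 11651 genes whose mean over the 10 libraries reached 1 FPKM entered the test as log2(FPKM + 0.5), which understates changes of low genes, with limma 3.58.1 in R 4.3.3 (lmFit, eBayes with a variance trend), two-sided, adjusted by Benjamini-Hochberg over all of them, threshold 0.05. The fit was tested on data simulated with the means and spreads of all tested genes. It recovered 38% of changes of 1.25-fold and 70% of 1.5-fold, with 6 false calls among 155. A gene that did not pass can therefore still have changed. Ratios were compared by exact permutation (SciPy 1.17.1). The 36 genes and the other lists were chosen with earlier results of these data known. All 36 are described, per mouse where they passed or the groups did not overlap. Of related lists, up to 4 genes with the smallest p and a few preset genes are named, of which 1 is not reported here. Joined entries stayed out of list counts. Protein sequences were not used here. Alternatives are listed in the closing section.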

Additional observations from a re-analysis of the deposited data

Results flagged for a closer look

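In 76 groups of 5 mice examined (35 genes and 3 ratios in 2 groups), 3 held a mouse far from the other 4, and chance alone flags about 1 in 20 groups. Hadhb was at 879 FPKM in Sham 1, above 753 to 785 in the other Sham mice. Hsd17b4 was at 53.5 FPKM in Sham 1, above 52.2 to 52.5 in the others. Ehhadh was at 5.42 FPKM in Sham 2, below 6.63 to 6.97 in the others.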

How the results depend on the processing

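In 22 alternatives, 15 of the 18 called genes passed in every one, and Acad9, Etfb and Decr1 did not. The number of the 35 genes called lower was 15 to 17 when 1 library was left out, 17 to 18 under other pseudocounts, filters, scalings and variance models, 18 when both CKD 1 and Sham 1 were dropped, and 21 when a model term separated them from the rest, and the number called higher was 0 throughout. Acsl1, Hsd17b10 and Eci2 passed only with that term. Over all tested genes, 201 to 384 were called higher and 131 to 290 lower when 1 library was left out, against 369 and 247 with all. With a term for CKD 1 and Sham 1 these were 573 and 479, and with sample weights 400 were lower.

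Signs turned for 3 genes that were not called. Decr2 was at -0.0168 (log2) with sample weights, and at -0.0117 to 0.154 with 1 library left out, negative only without Sham 5. Acaa1a was at 0.0057 with sample weights, and at -0.061 to 0.0206 with 1 library left out, positive without CKD 5, Sham 2 or Sham 5. Fabp3 was at 0.0058 without CKD 1 and Sham 1, and at -0.052 to 0.0336 with 1 library left out, positive without CKD 1, Sham 2 or Sham 3.

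With 1 library left out, the log2 difference of the Acacb to Mlycd ratio was 0.31 to 0.43 (adjusted p 0.0476 to 0.0952), and without CKD 1 and Sham 1 it was 0.44 with groups that did not overlap (adjusted p 0.0857, the smallest that 4 against 4 mice allow over 3 ratios unless others pass too). That of Hadha to Hadhb was -0.0118 to 0.0398 and that of Etfa to Etfb -0.0098 to 0.0884. The cause of these changes was not tested, beyond the fewer mice in each. No paired analysis was possible because the labels give no number or animal shared between CKD and Sham. The scalings left the median change of all tested genes between -0.01 and -0.0014. FPKM hold no read numbers, so no limit from counting depth could be computed.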

Other observations

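Of 26 other tested genes of fatty acid handling, 4 fell and 0 rose by limma (median log2 0.01), where 2.12% of all tested genes were called lower. At an unadjusted p under 0.05, 10 of the 26 were lower and 2 higher, against 9.03% and 10.5% of all tested genes. Acot1, a cytosolic acyl-CoA thioesterase, was at 4.57, 2.88, 2.65, 2.91 and 2.16 FPKM in the CKD mice and 6.13, 5.88, 6.14, 5.80 and 5.79 in the Sham mice (log2 change -0.90, SE 0.14, adjusted p = 0.00376). Acot2, its mitochondrial paralogue, was at 38.9, 26.4, 29.3, 27.4 and 24.2 FPKM in the CKD mice and 46.1, 47.3, 40.5, 34.99 and 44.5 in the Sham mice, and its groups overlapped (log2 change -0.55, SE 0.12, adjusted p = 0.0227). The 2 genes are closely similar copies, and how shared reads were assigned is not known, so their levels are uncertain. Acss1, the mitochondrial acetyl-CoA synthetase, was at a mean FPKM of 157 ± 5.66 under CKD against 177 ± 5.15 under Sham (log2 change -0.17, SE 0.04, adjusted p = 0.0356), and Dbi, the acyl-CoA binding protein, at a mean FPKM of 238 ± 12.1 under CKD against 276 ± 18.3 under Sham (log2 change -0.21, SE 0.06, adjusted p = 0.0462). Angptl4, a secreted inhibitor of lipoprotein lipase that fatty acids induce, was named after its values were seen, and was at 4.57, 2.11, 0.658, 0.566 and 1.83 FPKM in the CKD mice and 3.07, 4.23, 5.13, 6.50 and 3.22 in the Sham mice. Its log2 change was the largest in size of this list, but CKD 1 lay among the Sham mice and the change did not pass (log2 change -1.20, SE 0.38, adjusted p = 0.0905). Acaca, the cytosolic acetyl-CoA carboxylase, was at a mean FPKM of 1.08 ± 0.0903 under CKD against 1.07 ± 0.162 under Sham (log2 change 0.01, SE 0.11, adjusted p = 0.983).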
